A study of Mus musculus with 6 samples.

Results

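The genes described here are Trp53, which encodes the transcription factor p53, and Mdm2, Mdm4, Ppm1d and Ccng1, whose products restrain it. These 5 genes were taken by symbol from a table of 32544 genes, and all 5 were among the 14311 genes with enough reads to be tested. The libraries held polyadenylated RNA of hand-dissected proximal tubule (segments S2 and S3, its downstream stretches) from C57Bl/6 mice that the series calls control mice. The groups compared were mice given aristolochic acid I (AA) and mice given the solvent dimethyl sulfoxide (DMSO), each after a single injection with a stated dose of 3 mg/kg and 24 h before collection, with 3 libraries per group. Several tubules were pooled from each kidney, sex and age were not given in the sources used here, and no source says whether each library is a different animal; p-values therefore measure only the spread between these libraries.

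Proximal tubule cells take up aristolochic acid I, a toxin of Aristolochia plants, and reduce it to a form that binds DNA as bulky adducts. DNA damage stabilises p53, which then switches on genes of cell cycle arrest, repair and cell death. Several proteins restrain p53, and some of them close a loop as products of its own target genes. Mdm2 is a ubiquitin ligase that marks p53 for degradation. Its relative Mdm4 (MdmX) covers the activation domain of p53 and pairs with Mdm2. The phosphatase Ppm1d (Wip1) removes phosphates that damage kinases place on p53 and on other damage proteins. Cyclin G1, the product of Ccng1, recruits protein phosphatase 2A to Mdm2. Much of the control of p53 lies in the turnover of its protein, which RNA libraries do not measure.

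The start regions of the responding genes are shown first because the p53 response element, a pair of short inverted sites, can be looked for in them. RefSeq promoter sequences (GRCm38.p6, the assembly of mm10) were found for all 5 genes, with 2 start sites for Mdm4. The 20-base form of the element without a spacer was searched on both strands, with the C and G at the core of each site required, in 32851 windows of 300 bases. The motifs were chosen with these sequences in view, and a match is a description of letters only. The Ccng1 window held a match with 1 mismatch at chr11:40755462-40755481, its first base 195 bases before the start site on the minus strand. Matches with at most 1 mismatch occurred in 22 of the 32851 windows, 0.0670%. The best match near Trp53 had 3 mismatches (75 bases before the start; 1.38% of windows hold one as good) and that near Ppm1d had 4 (142 bases before; 4.80% of windows), whereas the Mdm2 window and both Mdm4 windows held no match with 4 or fewer. The stretches follow with mismatched letters in capitals.
Ccng1 element: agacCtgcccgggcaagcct
Trp53 best match: ggacttgcccTTacttgttA
Ppm1d best match: gggcGGgGGcgagcttgctc

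The 250 bases before the start site are given for Ccng1 (chr11:40755287-40755536, minus strand), for Ppm1d (chr11:85311004-85311253, plus strand) and for Mdm2 (chr10:117710759-117711008, minus strand), 3 genes with higher RNA in AA whose start regions differ. Capitals mark the p53 element in Ccng1 and a cyclic AMP response element (TGACGTCA) in Ppm1d, a motif found in 1.79% of all windows. Mdm2 has a second promoter within its first intron, known for its p53 sites, which lies outside this window; the table has 1 row per gene, so starts from either promoter were not separated.
Ccng1: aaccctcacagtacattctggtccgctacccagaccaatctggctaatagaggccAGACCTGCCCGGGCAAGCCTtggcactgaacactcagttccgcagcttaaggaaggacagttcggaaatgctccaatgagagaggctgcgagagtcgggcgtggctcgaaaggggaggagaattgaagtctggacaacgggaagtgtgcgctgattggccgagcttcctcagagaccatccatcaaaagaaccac
Ppm1d: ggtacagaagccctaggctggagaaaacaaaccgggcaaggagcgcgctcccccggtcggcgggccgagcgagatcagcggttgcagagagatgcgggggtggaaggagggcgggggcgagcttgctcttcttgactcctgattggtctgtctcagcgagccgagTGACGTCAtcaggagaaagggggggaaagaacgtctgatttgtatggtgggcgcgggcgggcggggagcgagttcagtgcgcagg
Mdm2: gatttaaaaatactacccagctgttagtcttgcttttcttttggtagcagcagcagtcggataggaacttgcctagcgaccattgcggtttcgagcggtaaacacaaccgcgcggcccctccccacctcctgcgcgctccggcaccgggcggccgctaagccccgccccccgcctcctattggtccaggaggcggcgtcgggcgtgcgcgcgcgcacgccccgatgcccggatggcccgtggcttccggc

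Inverted or direct CCAAT boxes (CCAAT, 37.4% of windows) occurred 4 times in the Ccng1 window and 1 time each for Trp53, Mdm2 and Ppm1d. GC boxes (GGGCGG, 35.7% of windows) occurred 3 times in the Ppm1d window and 2 times in that of Mdm2. The Trp53 window held an E box (CACGTG, 7.15% of windows) 10 bases after its start site. The windows of Mdm4 held none of these motifs.

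The libraries counted 13304877 to 31136251 reads each, and the members had 209 to 20844 reads in a library, so that the widest 95% Poisson interval, which covers counting error only, spanned 13.8% on either side of the count. Levels are in CPM, the share of a library's reads scaled to a common total. The log2 values of libraries correlated at 0.970 to 0.980 within groups and 0.918 to 0.950 between them. Proximal tubule markers were high in every library, with a summed level of 22370 to 29023 CPM in DMSO and 11430 to 14300 CPM in AA over 10 genes, of which 4 were lower in AA (Lrp2, Cubn, Slc27a2 and Acy3) and the other 6 did not pass the test. Markers of other cells were also read. The 9 distal nephron genes summed to 242 to 543 CPM in DMSO and 357 to 1395 CPM in AA (highest in AA replicate 2); 1 rose, the collecting duct water channel gene Aqp2 (8.29 ± 1.07 to 43.4 ± 20.9 CPM), and 5 passed without AA replicate 1. The 7 endothelial genes summed to 188 to 301 and 291 to 345 CPM, with 2 higher (Cdh5 and Pecam1), and the 6 stromal and podocyte genes to 56.3 to 77.4 and 96.1 to 113 CPM, with 1 higher (Pdgfrb, log2 fold change 1.00). The 8 leukocyte genes summed to 175 to 266 and 159 to 214 CPM, a sum carried by Csf1r (205 ± 47.0 and 144 ± 30.8 CPM, not passed), yet 3 of the 6 tested rose and 0 fell. These were the macrophage and lysosome gene Cd68 (0.933 ± 0.484 to 28.4 ± 9.30 CPM), Lyz2 (1.77 ± 0.596 to 5.78 ± 3.20 CPM) and the B cell gene Cd79a (0.189 ± 0.0613 to 2.02 ± 0.949 CPM), and the last passed the filter on low values through AA alone. With libraries scaled to equal medians the leukocyte calls were 2 higher and 1 lower, and the endothelial calls 1 higher. Without AA replicate 1 or AA replicate 2 only 1 leukocyte call was left. For comparison, 22.3% of all tested genes passed as higher in AA and 8.66% as lower. The shares higher were 28.6% for endothelium, 16.7% for stroma and podocytes and 11.1% for distal nephron. The 3 of 6 leukocyte genes higher and 4 of 10 proximal tubule genes lower were above those of all tested genes. Lists this short were not tested against that background. Among the markers of other cells, Cldn16, Cd3e and S100a8 were at 0 in at least 1 library. The part of such cells in the results below was not tested, and in these bulk samples fewer cells of a type and less RNA per cell cannot be told apart.

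Of the 5 genes, 4 rose in AA (Ccng1, Mdm2, Trp53 and Ppm1d) and Mdm4 did not pass the test, by limma with Benjamini-Hochberg adjustment over all 14311 tested genes (threshold 0.05). Over all tested genes, 30.9% passed, 22.3% as higher and 8.66% as lower in AA. For the same 4 genes every AA library lay above every DMSO library, which was so for 33.4% of tested genes. Across tested genes the log2 fold change had a median of 0.21, and scaling the libraries to equal medians turned the split of calls from 3187 higher and 1239 lower to 1606 and 2422; relative to that median the log2 fold changes were 2.40 for Ccng1, 1.89 for Mdm2, 1.04 for Trp53, 1.00 for Ppm1d and 0.21 for Mdm4. Fold changes of log2(CPM + 1) understate the change of genes with few reads, little at the levels of the 5 members and strongly for genes near or below 1 CPM in a group.

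Trp53 occupies bases 69580359 to 69591873 of chromosome 11, plus strand (GENCODE M21, mm10). Its level was 29.8, 35.5 and 32.0 CPM in DMSO replicates 1, 2 and 3, and 75.2, 70.2 and 90.8 CPM in AA replicates 1, 2 and 3. The groups were well apart, and AA replicate 3 stood above the other AA libraries. The log2 value rose by 1.25 (SE 0.15, 95% interval 0.92 to 1.58, limma adjusted p = 0.000237), a 2.38-fold rise. Among all tested genes, 5.44% had a larger log2 fold change. The processed pseudogene Trp53-ps, which could share reads with Trp53, had 0 reads in all 6 libraries.

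Mdm2 occupies bases 117688875 to 117710758 of chromosome 10, minus strand. It had 49.6, 55.6 and 66.2 CPM in DMSO replicates 1 to 3 and 209, 233 and 305 CPM in AA replicates 1 to 3. AA replicate 3 again had the highest level, and the lowest AA value was still over 3 times the highest DMSO value. The rise on the log2 scale was 2.10 (SE 0.17, 95% interval 1.73 to 2.47, limma adjusted p = 1.82e-05), which ranked 177 among the tested genes.

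Mdm4, the relative of Mdm2 without strong ligase activity of its own, occupies bases 132959484 to 133030561 of chromosome 1, minus strand. It had 74.7, 70.0 and 84.6 CPM in DMSO replicates 1 to 3 and 79.8, 100.1 and 132 CPM in AA replicates 1 to 3. AA replicate 1 fell within the DMSO range, while AA replicates 2 and 3 lay above it. The log2 difference was 0.41 (SE 0.18, 95% interval 0.02 to 0.81, unadjusted p = 0.0415, limma adjusted p = 0.102). The interval allows a fold of 1.01 to 1.75, so these libraries do not show that Mdm4 stayed level. Without AA replicate 1 the log2 fold change was 0.59 and the gene passed (adjusted p = 0.0351), and with equalised library medians it was 0.15 (adjusted p = 0.552). The spread of Mdm4 within AA (SD 0.36 on the log2 scale) was above the median SD of tested genes in that group (0.20).

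Ppm1d occupies bases 85311244 to 85347066 of chromosome 11, plus strand, and was the least abundant of the 5 genes in CPM. Its level was 10.6, 11.3 and 13.1 CPM in DMSO replicates 1 to 3, and 23.8, 33.9 and 27.8 CPM in AA replicates 1 to 3. Here AA replicate 2, not AA replicate 3, was highest, and the groups did not overlap. On the log2 scale the rise was 1.21 (SE 0.19, 95% interval 0.79 to 1.63, limma adjusted p = 0.00124), with 5.81% of tested genes above it. AA replicate 2 also had the highest distal nephron marker sum (1395 CPM), and without it the rise was 1.08 (limma adjusted p = 0.00883). The 209 reads in DMSO replicate 3 gave an interval of 11.4 to 15.0 CPM, below the 21.2 CPM at which the interval of the lowest AA library began.

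Ccng1 occupies bases 40748552 to 40755311 of chromosome 11, minus strand. It had 211, 152 and 201 CPM in DMSO replicates 1 to 3 and 1144, 1170 and 1114 CPM in AA replicates 1 to 3. The AA libraries were nearly level with each other, with an SD of 0.036 on the log2 scale against 0.25 in DMSO, where replicate 2 was lowest. Its log2 value rose by 2.61 (SE 0.15, 95% interval 2.27 to 2.95, limma adjusted p = 2.55e-06), a 6.11-fold rise that ranked 104 by size and 14 by adjusted p among all tested genes.

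**Figure D1:**
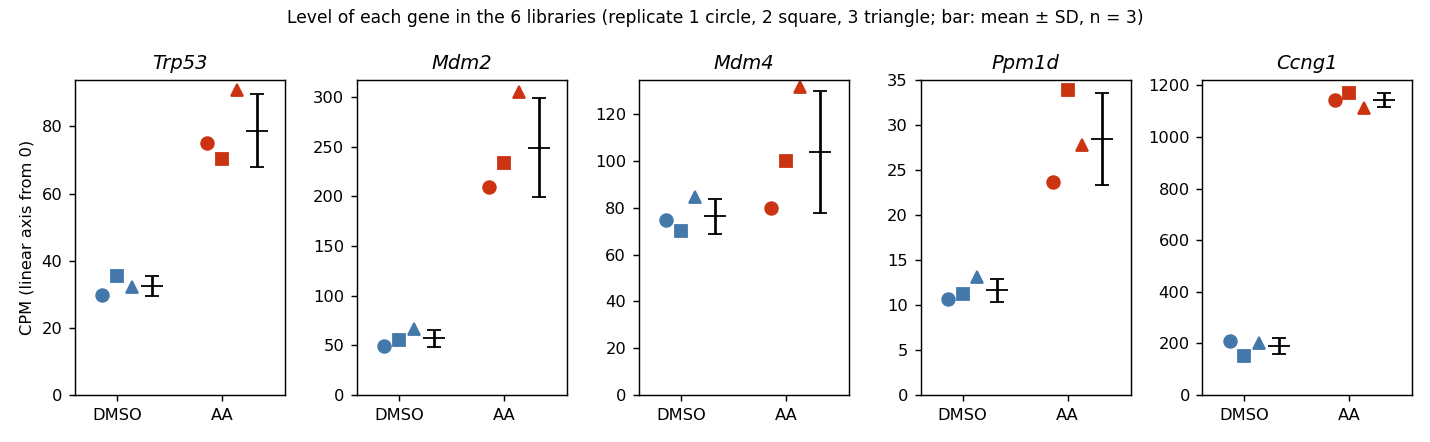
Level in CPM (vertical axis, linear from 0) of each of the 5 genes in the 3 DMSO and 3 AA libraries; symbols are replicates and the bar is mean ± SD (n = 3). The AA points lie above all DMSO points for Trp53, Mdm2, Ppm1d and Ccng1, and for Mdm4 AA replicate 1 (79.8 CPM) lies within the DMSO range of 70.0 to 84.6 CPM.

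The 4 calls did not rest on 1 setting or library. Over 18 alternatives in scaling, filter, pseudocount, variance model, test and libraries left out, the log2 fold change ran from 2.35 to 2.70 for Ccng1, from 1.84 to 2.21 for Mdm2, from 0.99 to 1.33 for Trp53 and from 0.95 to 1.33 for Ppm1d, and each gene passed in all 18. With a term that sets DMSO replicates 1 and 2 apart from the other libraries (the library-set term), which leaves the effect resting on DMSO replicate 3, the log2 fold changes were 2.50, 1.88, 1.26 and 1.05 in the same order, with the highest limma adjusted p for Ppm1d at 0.0349.

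**Figure D2:**
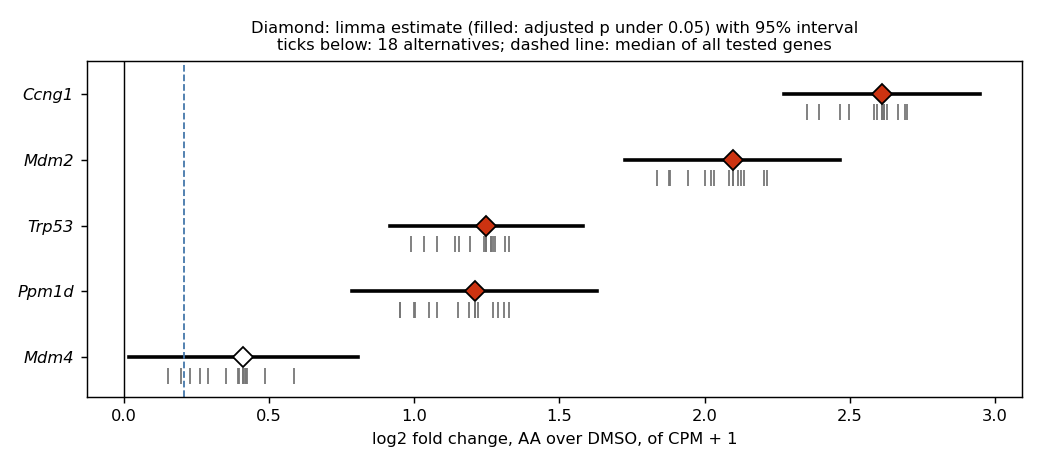
Log2 fold change of AA over DMSO (horizontal axis) with its 95% interval for each of the 5 genes; ticks below each line are the 18 alternatives and the dashed line is the median of all tested genes (0.21). The intervals of Ccng1, Mdm2, Trp53 and Ppm1d lie above the dashed line, and that of Mdm4 spans it.

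**Figure D3:**
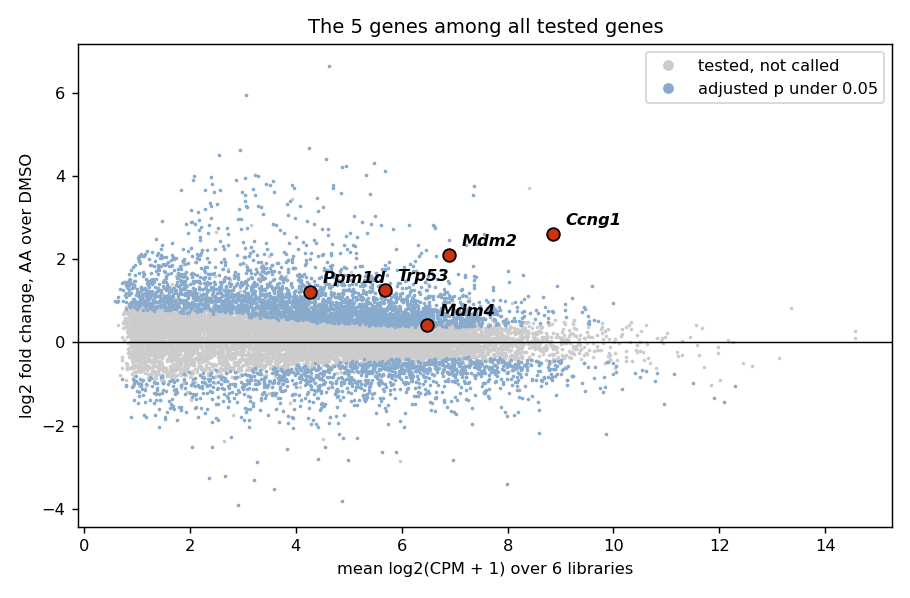
Log2 fold change (vertical axis) against mean log2(CPM + 1) over the 6 libraries (horizontal axis) for the 14311 tested genes, with the 5 genes in red. Ccng1 and Mdm2 lie at the upper edge of the cloud for their level, Trp53 and Ppm1d lower within the called genes, and Mdm4 among genes that did not pass.

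Levels of different genes can be set side by side only per length, here CPM per kilobase of annotated exon, a coarse scale because the exon total includes rarely used exons (14798 bases for Mdm4, against 3173 to 5083 for the other members). In DMSO, Ccng1 was highest at 53.6 ± 8.93 CPM per kilobase (mean ± SD, n = 3), followed by Mdm2 at 11.2 ± 1.65, Trp53 at 8.02 ± 0.709, Mdm4 at 5.16 ± 0.504 and Ppm1d at 3.68 ± 0.403. Neighbours in that order did not overlap between libraries. In AA, Ccng1 reached 325 ± 8.01 CPM per kilobase, Mdm2 49.0 ± 9.79, Trp53 19.5 ± 2.67, Ppm1d 8.98 ± 1.61 and Mdm4 7.02 ± 1.77. Ppm1d and Mdm4 thus traded places by their means, but their AA ranges overlapped (7.49 to 10.7 and 5.39 to 8.90 CPM per kilobase).

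Ratios between the genes within a library do not depend on how libraries are scaled. The ratio of Mdm2 to Mdm4 in CPM was 0.664, 0.795 and 0.782 in DMSO replicates 1 to 3 and 2.62, 2.33 and 2.32 in AA replicates 1 to 3. Mdm4 reads thus outnumbered Mdm2 reads in every DMSO library, and the reverse held in every AA library. These are read counts, and Mdm4 has the longer exon total (14798 bases against 5083 for Mdm2). Per kilobase of exon, Mdm2 lay above Mdm4 in every library of both groups (means of 11.2 and 5.16 in DMSO, 49.0 and 7.02 in AA). The mean log2 ratio changed by 1.70 (exact permutation p = 0.1, two-sided). With 3 libraries against 3, 0.1 is the smallest p this exact permutation test can give, and 0.125 its smallest value after adjustment over the 10 pairs of members reached here.

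The ratio of Trp53 to Mdm2 was 0.600, 0.638 and 0.484 in DMSO and 0.359, 0.300 and 0.298 in AA. Trp53 relative to Mdm2 was thus lower in each AA library than in any DMSO library, a change of -0.84 in the log2 ratio. Against Ccng1, Trp53 stood at 0.142, 0.233 and 0.159 in DMSO and at 0.0657, 0.0600 and 0.0816 in AA. The ratio of Trp53 to Ppm1d, by contrast, was 2.80, 3.15 and 2.44 in DMSO and 3.16, 2.07 and 3.27 in AA, ranges that overlapped, with a change of -0.0038 in the mean log2 ratio (exact permutation p = 1). Its SD between AA libraries (0.37) leaves room for a sizeable difference, so equal change was not shown. Of the 10 pairs, 8 had ratios that did not overlap between groups. The other exception was Mdm2 to Ccng1 (0.236 to 0.365 in DMSO, 0.183 to 0.274 in AA, exact permutation p = 0.2). The pairs reuse the same genes, whose log2 fold changes differ, so these counts are not separate from the changes of the single genes. The share without overlap among pairs of other tested genes was not computed.

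**Figure D4:**
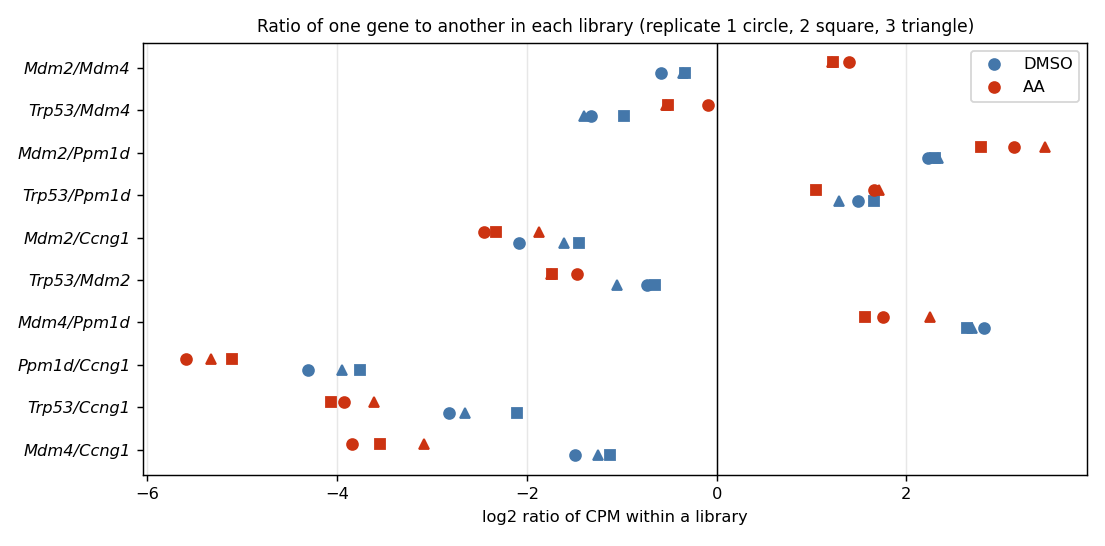
Log2 ratio of CPM within a library (horizontal axis) for the 10 pairs of the 5 genes, with DMSO in blue and AA in red and one symbol per replicate. Red and blue points are apart for 8 pairs, most widely for Mdm4/Ccng1 and Mdm2/Mdm4, and mixed for Trp53/Ppm1d and Mdm2/Ccng1.

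The rest of the p53 circuit was read from 9 lists of genes written from general knowledge, but with earlier results of these data known. Counts from these lists are therefore descriptions and not independent support. Other target genes of p53 moved with the 4 rising genes: 31 of 36 rose and 0 fell, against 22.3% higher and 8.66% lower over all tested genes, with a median log2 fold change of 1.89 against 0.21. Eda2r, Ckap2 and Gtse1 lay below 1 CPM in every DMSO library and passed the filter through AA alone, so they could only be higher; without them 28 of 33 rose, with a median of 1.81. Cdkn1a, the gene of the cell cycle inhibitor p21, went from 1.67 ± 1.38 to 249 ± 49.5 CPM (mean ± SD, n = 3). Phlda3, an inhibitor of Akt signalling, had a log2 fold change of 4.41 (SE 0.21), the kinase gene Plk2 one of 4.11 (SE 0.17) and the antiproliferative gene Btg2 one of 4.23 (SE 0.21). The log2 fold changes of Ccng1 and Mdm2 (2.61 and 2.10) lay within the range of this list (0.04 to 6.64) and above its median, those of Trp53 and Ppm1d below it. The 5 targets that did not pass, named after their values were seen, were Sesn1 (0.30), Tigar (0.29), Rrm2b (0.04), Xpc (0.37) and Ddb2 (0.39).

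Among 8 other genes of p53 feedback, 6 could be tested, of which 3 rose and 1 fell, with a median of 0.56. Over all tested genes, 22.3% were higher and 8.66% lower in AA, with a median of 0.21. Of the 3 that rose, Trp53inp1 and Gtse1 were already counted among the target genes. Trp53inp1, which promotes phosphorylation of p53, went from 44.4 ± 6.14 to 628 ± 191 CPM (log2 fold change 3.75, SE 0.21, limma adjusted p = 2.08e-06). Gtse1, a microtubule protein that carries p53 out of the nucleus, went from 0.576 ± 0.367 to 37.4 ± 6.05 CPM (log2 fold change 4.62, SE 0.25, on a scale that understates so low a start); it passed the filter through AA alone, and without it 2 of 5 rose and 1 fell. Changes in ubiquitin ligases that share the task of Mdm2 were smaller: Rchy1 (Pirh2) changed by 0.58 on the log2 scale (SE 0.18, adjusted p = 0.0334), and Cop1, listed as Rfwd2, by -0.40 (SE 0.13, adjusted p = 0.0395); both also stand in the next list. Under the library-set term neither passed (adjusted p = 0.396 and 0.165), and the list kept 2 calls without DMSO replicate 1 or AA replicate 1 and 1 without AA replicate 2 or AA replicate 3; Gtse1 drops below the filter when any AA library is left out. Cdkn2a, whose p19Arf product blocks Mdm2, and the p53 relative Trp73 were too low to test, at most 2.09 and 0.321 CPM in any library, and Trp63, another relative, measured 2.33 ± 0.997 CPM in DMSO against 2.70 ± 0.880 in AA (log2 fold change 0.17, limma adjusted p = 0.71).

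Of 15 ubiquitin ligases and ubiquitin proteases that act on p53, Mdm2 or Mdm4, 3 rose, 2 fell and 10 missed the threshold, with a median of 0.19. The called share, 33.3%, was near the 30.9% of all tested genes, and its balance turned with the scaling: 1 higher and 5 lower with equalised medians or TMM factors (trimmed mean of M values), and 1 and 4 after quantile normalization. Usp2, a protease that stabilises Mdm2, fell from 205 ± 39.3 to 81.9 ± 16.2 CPM (log2 fold change -1.32, SE 0.18, limma adjusted p = 0.000567), while the ligase genes Topors and Mkrn1 rose by 0.72 and 0.42 on the log2 scale (SE 0.14 for each). With the library-set term only Usp2 passed within this list, and leaving out any 1 library left 2 or 3 of the 5 calls (2 without DMSO replicate 1, AA replicate 2 or AA replicate 3). Of 13 tested genes whose ribosomal or nucleolar products bind and restrain Mdm2, 8 rose (61.5%, against 22.3% of all tested genes) and 0 fell, with a median of 0.65. Gnl3 (nucleostemin) rose from 14.9 ± 1.75 to 52.6 ± 6.80 CPM, Ncl (nucleolin) from 217 ± 20.5 to 425 ± 30.9 CPM, and Npm1 (nucleophosmin) from 84.9 ± 17.9 to 165 ± 7.36 CPM. The ribosomal gene Rps3 rose by 0.69 on the log2 scale (SE 0.13). With equalised library medians 4 of this list passed, as with TMM factors, and without AA replicate 2 or with the library-set term 5 passed, all of them higher.

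Of 15 kinases that phosphorylate p53, Mdm2 or Mdm4, 1 rose, 4 fell and 10 missed the threshold, with a median of 0.02. The called share of 33.3% was near that of all tested genes (30.9%), but its directions differed. In the list 26.7% were lower and 6.67% higher, against 8.66% lower and 22.3% higher over all tested genes. Prkdc, the catalytic subunit of DNA-dependent protein kinase, fell from 72.1 ± 0.409 to 35.5 ± 1.26 CPM (log2 fold change -1.01, SE 0.13, limma adjusted p = 0.000385). Mapk14 (p38), Hipk2 and the damage kinase gene Atm, the last named after its values were seen, had log2 fold changes of -0.69, -0.52 and -0.78, and Akt1, which phosphorylates Mdm2, one of 0.65. With the library-set term, only Prkdc passed in this list. Of 18 cofactors and modifiers of p53, 8 rose (44.4%, against 22.3% of all tested genes) and 0 fell (8.66% of all), with a median of 0.36, led by Ppp1r13l (iASPP, an inhibitor of p53), which went from 4.18 ± 0.889 to 16.8 ± 4.22 CPM (log2 fold change 1.77, SE 0.24). The acetylase gene Kat8 and the methylase genes Setd7 and Prmt5 had log2 fold changes of 0.88, 0.84 and 0.61. This count fell to 2 higher and 1 lower with equalised library medians, to 3 higher and 1 lower after quantile normalization or with TMM factors, to 5 and 3 higher without AA replicate 1 and DMSO replicate 1, and to 2 higher without AA replicate 2 or with the library-set term.

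Of 11 tested relatives of Ppm1d in the PPM phosphatase family, 4 rose and 4 fell (36.4% each, against 22.3% higher and 8.66% lower over all tested genes), with a median of 0.26. Ppm1l, a phosphatase of stress kinase signalling, fell from 42.5 ± 3.82 to 9.85 ± 2.69 CPM (log2 fold change -2.03, SE 0.21, limma adjusted p = 8.45e-05), and Ppm1k, which acts on branched-chain amino acid breakdown, had one of -0.68 (SE 0.15). Ppm1j and Ppm1g had log2 fold changes of 1.03 and 0.69. The list counted 2 higher and 4 lower with equalised medians or TMM factors, 1 higher and 4 lower after quantile normalization, and 1 higher and 3 lower with the library-set term. Among 12 relatives and partners of cyclin G1, 3 rose and 0 fell, with a median of 0.21, a share and a median near the values over all tested genes (22.3% higher, median 0.21). Ppp2r5d and Ppp2cb, subunits of protein phosphatase 2A, rose by 0.91 (SE 0.15) and 0.86 (SE 0.19) on the log2 scale, and its scaffold gene Ppp2r1a by 0.53 (SE 0.14). This list held 2 higher and 2 lower genes with equalised medians or TMM factors, and 4 higher and 1 lower after quantile normalization. The nearest relatives of Ccng1, which did not pass and were named after their values were seen, were Ccng2 (log2 fold change 0.38, adjusted p = 0.0928) and Ccni (0.46, adjusted p = 0.0524).

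**Figure D5:**
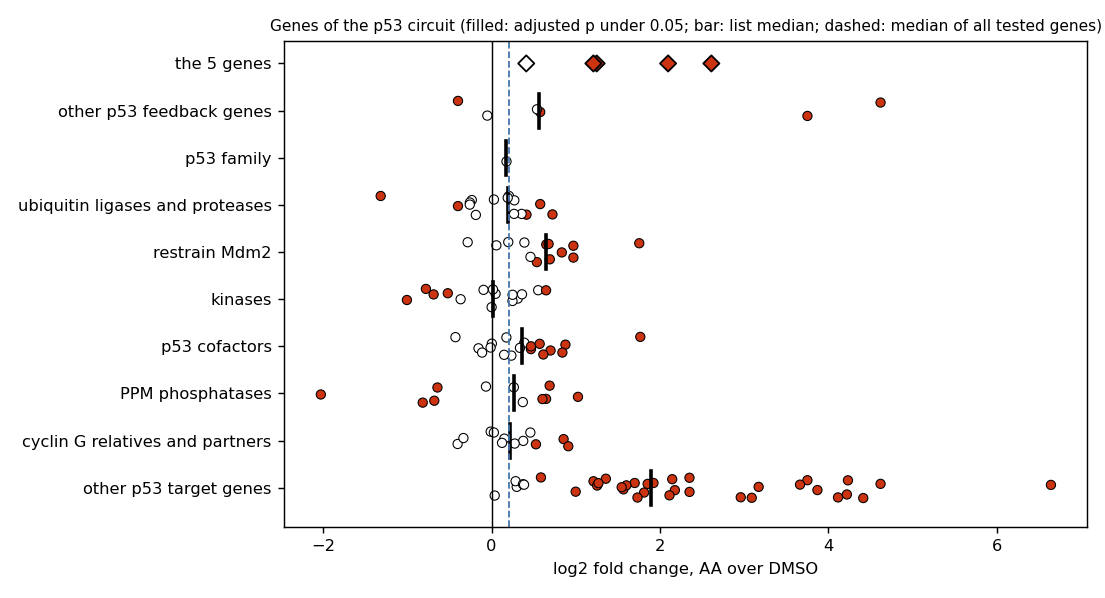
Log2 fold change of AA over DMSO (horizontal axis) for the 5 genes and for 9 lists of the p53 circuit; filled symbols passed the test, bars are list medians and the dashed line is the median of all tested genes (0.21). The median of other p53 target genes lies at 1.89, and those of the remaining lists between 0.02 and 0.65.

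Neighbouring genes on the chromosome were read to see whether the members moved alone. Wrap53, which starts 103 bases from Trp53 and runs the opposite way, measured 12.3 ± 2.70 CPM in DMSO against 16.3 ± 3.52 in AA (log2 fold change 0.37, SE 0.23, limma adjusted p = 0.232), and Atp1b2 on the other side changed by 0.84 (log2, adjusted p = 0.025), a call lost under 9 of 18 alternatives, among them leaving out DMSO replicate 1 or 2 or AA replicate 1 or 2. Both neighbours of Mdm2 rose: Cpm, a carboxypeptidase gene 1522 bases away on the opposite strand, went from 15.9 ± 0.970 to 46.0 ± 5.73 CPM (log2 fold change 1.47, adjusted p = 0.000143), and Slc35e3 rose by 1.07 (log2, adjusted p = 0.000981). Nudcd2, beside Ccng1, went from 13.2 ± 2.86 to 30.7 ± 4.74 CPM (log2 fold change 1.17, adjusted p = 0.00212, and 0.0624 under the library-set term). Bcas3, which starts 6100 bases after Ppm1d on the same strand, went the other way, from 49.5 ± 6.76 to 13.7 ± 1.05 CPM (log2 fold change -1.78, SE 0.17, adjusted p = 5.55e-05), while Appbp2 before Ppm1d did not pass (0.26, adjusted p = 0.186). Of the genes beside Mdm4, Pik3c2b changed by 0.66 (log2, adjusted p = 0.0493, lost under 12 of 18 alternatives, leaving out any library but DMSO replicate 2 among them), and Lrrn2 and the overlapping pseudogene Gm29257 were too low to test.

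Genes with the most similar profile over the 6 libraries were found by the smallest root mean square difference of centred log2 values. For Trp53 these were Ddx21, Zfp688 and Nop56 (differences of 0.0898, 0.0934 and 0.0942), of which Ddx21 and Nop56 act in ribosome production. For Mdm2 they were Hist2h2be, Cyr61 and Ppp1r15a (0.112, 0.141 and 0.144). For Mdm4 they were Nxpe5, Sgtb and Dusp11 (0.0431, 0.0486 and 0.0561), 3 genes that did not pass the test either. For Ppm1d they were 1700011H14Rik, Kctd11 and Map3k1 (0.0496, 0.0509 and 0.0708). For Ccng1 they were Acat3, Slc19a2 and Srxn1 (0.151, 0.153 and 0.223), the last an antioxidant enzyme gene.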

How the data were processed

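Polyadenylated RNA of proximal tubule segments was sequenced in 3 AA and 3 DMSO libraries, prepared, per the labels' protocols, with a TruSeq Stranded mRNA kit. The build mm10, bcl2fastq 2.19 and kallisto (no version or role) are named per the submitters' processing notes; for the annotation, the joining of transcripts to genes and the strand setting, the sources used here give nothing. Values in the deposited table are on a log10 scale. The values themselves showed log10(CPM + 1), which was undone; 100% of values were whole reads within 0.1 read.

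CPM were logged again as log2(CPM + 1). Genes reaching 1 CPM in 3 or more libraries entered limma 3.58.1 (variance trend, R 4.3.3), two-sided, with Benjamini-Hochberg adjustment over all of them. The script was tested on simulated data. Member ratios were compared by exact permutation (scipy 1.17.1). Alternatives were other scalings, filters, pseudocounts and variance models, voom on recovered reads, a library-set term, a replicate block and leaving out each library.

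The members and lists were chosen with earlier results of these data known. Genes named were the 5 members, up to 4 called genes per list with the smallest adjusted p (otherwise the 2 highest), the 3 nearest profiles per member, and chromosomal neighbours; any other is marked as chosen after its values were known. Coordinates and exon lengths are from GENCODE M21, and 2 older symbols (Rfwd2 for Cop1, Gltscr2 for Nop53) were matched through RefSeq synonyms.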

Additional observations from a re-analysis of the deposited data

How the results depend on the processing

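The direction of all 5 genes was upward in each of the 18 alternatives. Ccng1, Mdm2, Trp53 and Ppm1d passed in all 18; Mdm4 did not pass in 17, with log2 fold changes from 0.15 to 0.59 over all 18 (0.23 to 0.59 with 1 library left out), and passed without AA replicate 1 (0.59, limma adjusted p = 0.0351). The count of tested genes called was 4426, and 1481 with the library-set term; leaving out 1 library gave 2484 (without AA replicate 2) to 3969 (without DMSO replicate 3), with 2880 without AA replicate 3. Of the pathway lists, 68 genes passed, 44 with the library-set term (39 higher and 5 lower). The 8 pairs of members without overlap became 8 or 9 under each alternative, a count that could hardly fall. Library scaling, filter and variance model do not enter these ratios, and leaving out a library cannot create overlap. Of 1158 values, under the alternatives, of the 65 other genes that the naming rule picks (cell type markers included), 96 lost their call, 1 gained one and 0 reversed. Genes that fall below a filter have no value there, as Gtse1 and Cd79a do when an AA library is left out.

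Replicate numbers did not pair the libraries: same-numbered AA and DMSO libraries had deviations correlated at -0.109, -0.156 and -0.0151, and none of them correlated best with its own number. With the replicate block, log2 fold changes cannot differ from those without it, because the replicate numbers are balanced over the groups. The limma adjusted p was then 0.00133 for Trp53, 4.84e-05 for Mdm2, 0.0983 for Mdm4, 0.003 for Ppm1d and 4.31e-05 for Ccng1, and 3813 genes were called. Depth limits Ppm1d most among the 5 genes, with a 95% counting interval of up to 13.8% on either side of its read count.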

Other observations

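The p53 element that stood out in the Ccng1 window was looked for in all promoter windows. Of 10414 tested genes with a window, 22.6% were higher in AA. Among those with a match of at most 4 mismatches the share was 27.8% of 676 genes, and with at most 3 it was 30.9% of 194. With at most 2 it was 35.4% of 48, and with at most 1 it was 57.1% of 7. These are counts with no test, and the last groups are small. Ccng1 itself is among the 7, Trp53 among the 194 and Ppm1d among the 676, and each larger group holds the smaller ones.

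Ppm1d and Bcas3 lie on the same strand with 6100 bases between them, and their RNA moved in opposite directions, with log2 fold changes of 1.21 and -1.78, both called in all 18 alternatives.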
